A study of Drosophila melanogaster with 9 samples.

Results

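Gene expression was compared between Malpighian tubules of flies with a yki3SA tumour (3 libraries) and tubules of control flies (3 libraries). Both groups carried the driver esg-Gal4, its temperature-sensitive inhibitor tub-Gal80ts and UAS-GFP. Only the yki3SA flies carried UAS-Yki-3SA as well, which encodes activated Yorkie, and the control flies had a + in its place. Virgin progeny of both groups were held at 18 °C for 6 to 8 days and then moved to 29 °C, where the transgenes were on for 8 days. RNA was extracted from 80 tubules for each genotype. These 6 libraries are all libraries of the 2 genotypes among the 9 of the series, and 10253 of the 17611 genes in the count table had enough reads to be tested. No neutral UAS transgene was carried by the control flies, so an effect of a further UAS insertion cannot be told apart from that of yki3SA. The labels do not say that libraries of a group came from separate cultures or dissections, so p-values measure the spread between these libraries, which may be technical.

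Malpighian tubules are the renal organ of the fly. Principal cells pump cations and take up organic solutes, metabolites and toxins for excretion, and stellate cells carry chloride and water. Yorkie is the transcriptional coactivator at the end of the Hippo pathway, and its activated form makes stem cells of the midgut overgrow. The esg driver is on in progenitor cells of the midgut and also in renal stem cells of the tubule, so the transgene is on inside the sampled organ as well as outside it. The tubules are long epithelial tubes that touch gut, fat body and ovary, so pieces of these organs can be carried along in a dissection. In bulk RNA, fewer cells of a type and less RNA per cell cannot be told apart.

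Total counts were 34640437 to 49338340 per yki3SA library and 36088638 to 45728599 per control library. Levels are given as counts scaled to a common library size with the TMM factors of edgeR (CPM), always for libraries 1, 2 and 3 of a group. The fit also held the 3 remaining libraries of the series, from yki3SA flies with a knockdown of the hormone gene ITP (ITP-i), which share the estimate of the spread and enter no comparison here. A gene is called higher or lower when its edgeR quasi-likelihood test passes a Benjamini-Hochberg adjusted p of 0.05 over all genes tested, and every fold change is yki3SA over control on the log2 scale. The gene yki (FBgn0034970), whose activated form was expressed, was at 84.6, 89.7 and 74.7 CPM in yki3SA tubules, against 78.1, 62.95 and 78.8 CPM in control tubules, a difference that did not pass the test (log2 fold change 0.18, SE 0.13, adjusted p = 0.34) except when scaled by total counts (log2 fold change 0.47). The driver gene esg was at 2.26, 6.69 and 2.14 CPM in yki3SA tubules, against 5.996, 5.47 and 5.67 CPM in control tubules, and the groups overlapped. It was not called (log2 fold change -0.63, SE 0.42, adjusted p = 0.3) except without yki3SA library 2. The 16 principal cell markers summed to 18200, 17800 and 14600 CPM in yki3SA tubules and 27600, 20300 and 23500 CPM in control tubules, and the 10 stellate cell markers to 1150, 1230 and 1060 CPM in yki3SA tubules and 1620, 1650 and 1480 CPM in control tubules, so both tubule cell types were present in every library. Markers of neighbouring organs were lower in yki3SA libraries. The 16 fat body markers (8 lower, 1 higher of 16 tested) summed to 661 to 1060 CPM in yki3SA tubules and 3810 to 6680 CPM in control tubules. The 46 gut enterocyte markers (23 lower, 2 higher of 42 tested) summed to 118 to 344 CPM in yki3SA tubules and 638 to 1610 CPM in control tubules, with 6 of them at 0 counts in all yki3SA libraries. The 30 ovary and embryo markers (17 lower, 0 higher of 30 tested) summed to 162 to 307 CPM in yki3SA tubules and 340 to 576 CPM in control tubules. The 17 hemocyte markers (7 lower, 2 higher of 15 tested) summed to 297 to 332 CPM in yki3SA tubules and 317 to 354 CPM in control tubules, and these ranges overlapped.

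Of all genes tested, 3091 (30.1%) were called, 1659 higher (16.2%) and 1432 lower (14%) in yki3SA tubules. Among them 526 rose at least 2-fold (5.13%) and 767 fell at least 2-fold (7.48%). In 4701 of the genes tested (45.8%) the libraries of the 2 groups did not overlap. Where groups are said below not to overlap, or every yki3SA library to lie beyond every control library, this does not set a gene apart. Scaling by total counts alone moved the median of all genes by 0.29 on the log2 scale and turned 53.7% higher calls into 77.9% (3285 higher, 931 lower). Genes with a given name and genes known only by a CG number were called at nearly the same rate, 30.8% of 6314 and 30.5% of 3489. List counts below are read against the 16.2% of all tested genes that rose and the 14% that fell. List medians are read against the median of all tested genes, 0.07. The gene lists cover functions of the cell that tissue markers leave aside, and the single genes named from them kept their call in all 17 alternative analyses except where stated. Where that scaling moved the count of a list by over 1.5 times or turned its balance of rises and falls, the counts under it are given beside the list, marked as with total counts. Counts of 1 to 3 members of a list changed by more than 1.5 times without single libraries in many lists, and they describe these libraries only.

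**Figure D1:**
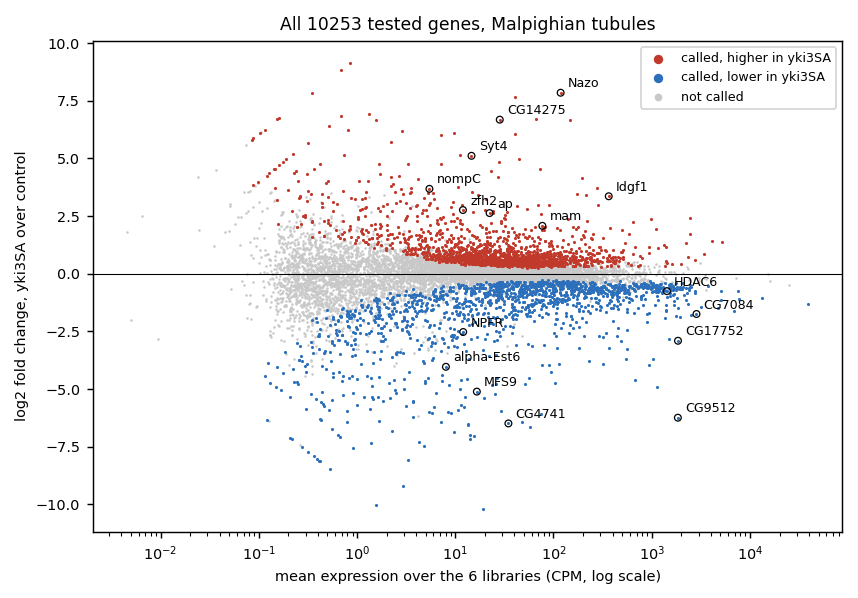
Log2 fold change of yki3SA over control (vertical axis) against the mean CPM of the 6 libraries (horizontal log axis) for the 10253 tested genes. Red points are the 1659 genes called higher in yki3SA, blue points the 1432 called lower and grey points those not called; circles mark genes named in the text.

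**Figure D2:**
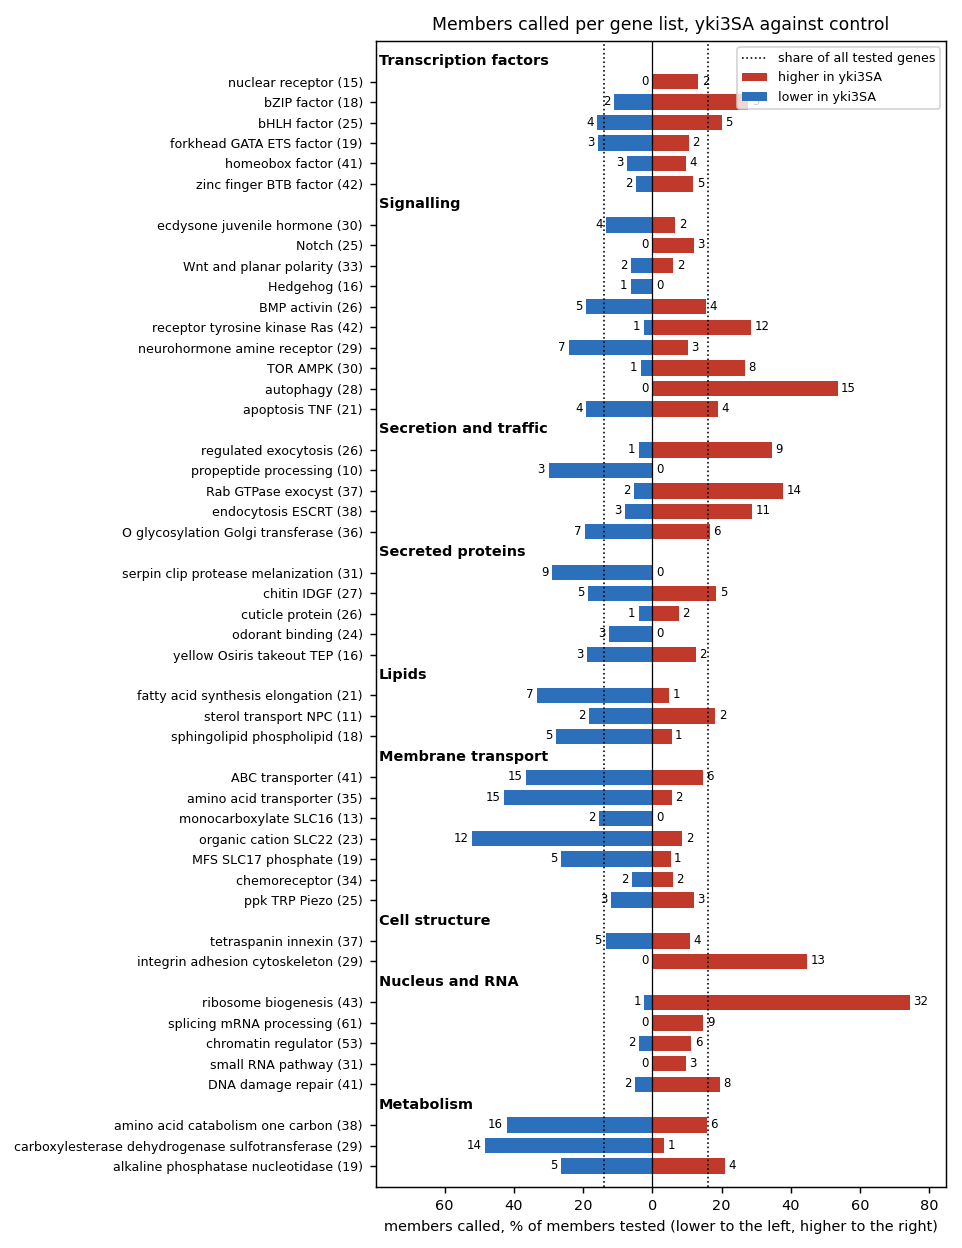
Share of tested members called in each gene list, with members higher in yki3SA to the right (red) and lower to the left (blue), the number called beside each bar and the number tested in parentheses. Dotted lines mark the shares over all tested genes, 16.2% higher and 14% lower; ribosome biogenesis (32 of 43 higher) and autophagy (15 of 28 higher) reach far past the line on the right, and organic cation transporters (12 of 23 lower) on the left.

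A few homeobox and zinc finger genes rose several-fold in yki3SA tubules. Of the transcription factors tested, 17.1% of homeobox, 16.7% of zinc finger and BTB, and 13.3% of nuclear receptor genes were called. The shares were 26.3% for forkhead, GATA and ETS, 38.9% for bZIP and 36% for bHLH genes, beside 30.1% of all genes. Of 41 homeobox genes tested, 4 rose and 3 fell (9.76% and 7.32%, beside 16.2% and 14% of all genes). With total counts these were 7 and 2, and another 46 in the table had too few reads to be tested. The lower count was 1 without control library 1 or 3 or yki3SA library 2 or 3. The LIM-homeodomain gene apterous (ap, FBgn0267978), known as the selector of dorsal wing identity, was at 42.4, 36.6 and 36.5 CPM in yki3SA tubules, against 5.62, 5.82 and 7.203 CPM in control tubules. The zinc finger homeobox gene zfh2 was at 21.99, 21.4 and 19.3 CPM in yki3SA tubules, against 2.79, 3.06 and 3.38 CPM in control tubules. In both genes every yki3SA library lay above every control library by a wide margin (ap, log2 fold change 2.63, SE 0.16, adjusted p = 5.5e-06; zfh2, log2 fold change 2.76, SE 0.18, adjusted p = 9.6e-06). NK7.1, another homeobox gene, was at 42.5, 47.5 and 37.4 CPM in yki3SA tubules, against 26.8, 24.3 and 26.8 CPM in control tubules (log2 fold change 0.71, SE 0.14, adjusted p = 0.0045). An exon of zfh2 overlaps Tdg on the other strand, and whether the counting used strand is not given in the sources used here.

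Of 42 zinc finger and BTB factors, 5 rose and 2 fell (11.9% and 4.76%, beside 16.2% and 14% of all genes). In this list 1 fell without control library 3 and 0 without yki3SA library 3, and 13 rose and 2 fell with total counts. The 4 named here rose by 0.52 to 1.60 on the log2 scale. The gene elB, a zinc finger gene of the noc family that acts in appendage and tracheal development, was at 30.4, 24.1 and 20.9 CPM in yki3SA tubules, against 7.19, 10.3 and 7.38 CPM in control tubules (log2 fold change 1.60, SE 0.20, adjusted p = 3.1e-04). The Krüppel-like factor luna was at 9.52, 9.13 and 8.59 CPM in yki3SA tubules, against 3.36, 3.92 and 3.01 CPM in control tubules (log2 fold change 1.40, SE 0.24, adjusted p = 0.0025). Cabut (cbt), a Krüppel-like factor that responds to sugar, was at 156, 149.7 and 160.1 CPM in yki3SA tubules, against 92.8, 86.3 and 99.7 CPM in control tubules (log2 0.74). drm, an odd-skipped family gene of the embryonic gut, was at 71.9, 61.4 and 61.8 CPM in yki3SA tubules, against 47.3, 43.9 and 45.3 CPM in control tubules (log2 0.52). None of the 4 overlapped between the groups. The 10 trachea markers (0 higher, 1 lower of 10 tested) summed to 446 to 505 CPM in yki3SA tubules and 359 to 417 CPM in control tubules, and their part in the result for elB was not tested. Of 15 nuclear receptors 2 rose and none fell (13.3% rose, beside 16.2% of all genes). The count of rises was 1 without control library 1 or 3 or yki3SA library 2 or 3 and 5 with total counts. The one that kept its call throughout was ultraspiracle (usp), the partner of the ecdysone receptor, with 63.3, 68.8 and 77.5 CPM in yki3SA tubules, against 50.1, 41.9 and 46.7 CPM in control tubules (log2 fold change 0.59, SE 0.12, adjusted p = 0.0045). It overlaps Actn on the same strand.

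Among 18 bZIP factors, 5 rose and 2 fell (27.8% and 11.1%, beside 16.2% and 14% of all genes). Without control library 1 the bZIP rises were 3, and with total counts 7 rose and 1 fell. Among 25 bHLH factors 5 rose and 4 fell (20% and 16%). Without control library 2 the bHLH rises were 2, and with total counts 11 rose and 3 fell. Irbp18, a C/EBP-type partner of the stress factor Xrp1, was at 16.4, 13.6 and 12.5 CPM in yki3SA tubules, against 6.44, 5.96 and 5.09 CPM in control tubules (log2 fold change 1.28, SE 0.17, adjusted p = 5.1e-04). It overlaps CG33947 on the other strand. maf-S, the small Maf partner of the antioxidant regulator cnc, was at 140.2, 114 and 113 CPM in yki3SA tubules, against 52.8, 65.9 and 68.6 CPM in control tubules (log2 fold change 0.97, SE 0.14, adjusted p = 1.0e-03). REPTOR-BP, which acts on the genes switched on when TORC1 is low, was at 49.1, 48.3 and 47.7 CPM in yki3SA tubules, against 32.7, 29.9 and 31.3 CPM in control tubules (log2 0.63). These bZIP genes were higher in all 3 yki3SA libraries than in any control library. Of the Max network, Mnt and bigmax were lower and Max was higher. Max, which overlaps Bet1 on the other strand, was at 18.2, 17.6 and 19.7 CPM in yki3SA tubules, against 12.7, 11.6 and 14.2 CPM in control tubules (log2 fold change 0.53, SE 0.13, adjusted p = 0.012). Leaving out control library 2 left Max short of the threshold (adjusted p = 0.053). Mnt, the repressor that competes with Myc for Max, was at 27.9, 19.1 and 20.8 CPM in yki3SA tubules, against 46.2, 43.3 and 49.9 CPM in control tubules (log2 fold change -1.04, SE 0.24, adjusted p = 0.0092). bigmax, the partner of the sugar sensor Mondo, was at 59.4, 46.7 and 50.6 CPM in yki3SA tubules, against 88.8, 75.8 and 74.1 CPM in control tubules (log2 fold change -0.61, SE 0.13, adjusted p = 0.0061), and it overlaps CG3368 on the other strand. The partner of PAS-domain factors, tgo, was higher at 30.4, 23.6 and 31.9 CPM in yki3SA tubules, against 20.1, 18.3 and 17.99 CPM in control tubules (log2 0.61), and overlaps CG11986 on the other strand.

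Of 19 forkhead, GATA and ETS factors, 2 rose and 3 fell (10.5% and 15.8%, beside 16.2% and 14% of all genes). The rises were 0 without control library 3 and 1 without control library 1 or yki3SA library 2. Under the other scaling, with total counts, 5 rose and 1 fell. The GATA factor serpent (srp), known for its role in fat body and blood cells, was at 16.7, 13.1 and 15.1 CPM in yki3SA tubules, against 45.4, 30.1 and 46.4 CPM in control tubules, and the groups did not overlap (log2 fold change -1.44, SE 0.19, adjusted p = 4.3e-04). srp is itself among the 17 hemocyte markers, whose sums of 297 to 332 CPM in yki3SA tubules and 317 to 354 CPM in control tubules overlapped. The fat body marker sums given above were lower in yki3SA libraries. The part of either marker list in the result for srp was not tested.

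**Figure D3:**
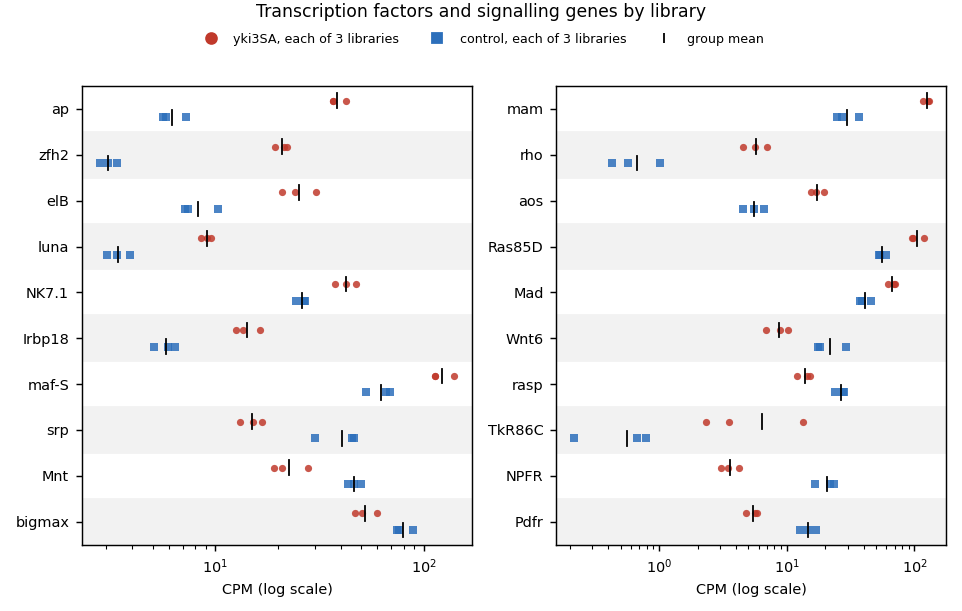
CPM in each library (horizontal log axis) of 10 transcription factors (left) and 10 signalling genes (right), with yki3SA as red circles above control as blue squares and the group means as vertical bars. Every gene plotted has groups that do not overlap, as do 45.8% of all tested genes. The widest gaps towards higher yki3SA are those of ap, zfh2, mam, rho and TkR86C, and the widest towards lower is that of NPFR.

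Among signalling genes, rho, aos, Ras85D, Shc and mam were higher in yki3SA tubules, and the receptors NPFR and Pdfr were lower. Of 42 receptor tyrosine kinase and Ras genes, 12 rose and 1 fell (28.6% rose, beside 16.2% of all genes), with a median log2 fold change of 0.22. The count of rises was 6 without control library 1 or yki3SA library 3 and 7 without control library 3 or yki3SA library 2, and with total counts 20 rose and 0 fell. The 1 fall was that of Egfr, the receptor of Spitz, at 46.9, 63.3 and 48.5 CPM in yki3SA tubules, against 77.2, 78.5 and 75.05 CPM in control tubules (log2 fold change -0.54, SE 0.15, adjusted p = 0.02). Egfr was no longer called with total counts or without yki3SA library 1 or 3. Rhomboid (rho), the membrane protease that releases the EGF-type ligand Spitz, was at 5.59, 6.94 and 4.54 CPM in yki3SA tubules, against 0.423, 1.02 and 0.573 CPM in control tubules, so the lowest yki3SA library was above the highest control library (log2 fold change 3.08, SE 0.37, adjusted p = 2.7e-04). Argos (aos), a secreted protein that sequesters Spitz and is itself induced by the receptor, was at 15.4, 19.7 and 16.99 CPM in yki3SA tubules, against 6.57, 5.55 and 4.55 CPM in control tubules (log2 fold change 1.64, SE 0.19, adjusted p = 2.3e-04). Ras85D, the GTPase below these receptors, was at 119, 97.1 and 95.4 CPM in yki3SA tubules, against 59.9, 53.7 and 52.8 CPM in control tubules (log2 fold change 0.90, SE 0.12, adjusted p = 5.3e-04). The adaptor Shc was at 45.9, 44.4 and 46.1 CPM in yki3SA tubules, against 20.9, 30.7 and 24.5 CPM in control tubules (log2 0.84).

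Of 25 Notch pathway genes 3 rose and none fell (12% rose, beside 16.2% of all genes), and mastermind (mam) was the one whose call held in all alternatives. Mastermind is the coactivator that binds Notch and Su(H) at target genes. It was at 129, 129 and 116 CPM in yki3SA tubules, against 26.8, 36.9 and 24.7 CPM in control tubules, with no overlap (log2 fold change 2.08, SE 0.24, adjusted p = 2.2e-04), and was the single rise left without control library 1, yki3SA library 1 or 2, or ITP-i library 1 or 2 of the joint fit. With total counts 8 Notch pathway genes rose. The Wnt and planar polarity list had 2 rises and 2 falls among 33 genes (6.06% each way, beside 16.2% and 14% of all genes). It had 0 to 1 rises without control library 1 or 3 or yki3SA library 2, and 10 rises and 1 fall with total counts. The Hedgehog list had 0 rises and 1 fall among 16 (6.25% fell, and 5 rises and 1 fall with total counts). The BMP and activin list had 4 rises and 5 falls among 26 (15.4% and 19.2%). It had 1 or 2 rises without any 1 of the 6 libraries compared, and 1 to 3 falls without any of them except control library 2. With total counts it had 7 rises and 1 fall. Wnt6, a secreted ligand, was at 6.82, 10.2 and 8.86 CPM in yki3SA tubules, against 18.3, 28.98 and 17.6 CPM in control tubules (log2 fold change -1.32, SE 0.23, adjusted p = 0.0026). rasp, the acyltransferase that lipidates Hedgehog and Spitz, was at 11.9, 15.1 and 14.3 CPM in yki3SA tubules, against 23.98, 27.3 and 27.97 CPM in control tubules (log2 fold change -0.94, SE 0.15, adjusted p = 0.0015), and overlaps Asciz on the other strand. Mad, the Smad protein of BMP signalling, was at 61.8, 68.5 and 70.8 CPM in yki3SA tubules, against 45.5, 37.6 and 38.7 CPM in control tubules (log2 fold change 0.72, SE 0.11, adjusted p = 0.0012). Wnt6 and rasp were lower, and Mad was higher, in every yki3SA library than in any control library.

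Of 29 receptors for neuropeptides and amines tested, 3 rose and 7 fell (10.3% and 24.1%, beside 16.2% and 14% of all genes). Their median log2 fold change was -0.58, and 23 further receptors had too few reads to be tested. NPFR, the neuropeptide F receptor, was at 3.46, 4.19 and 3.05 CPM in yki3SA tubules, against 23.4, 21.7 and 16.5 CPM in control tubules (log2 fold change -2.53, SE 0.44, adjusted p = 0.0024). Pdfr, the receptor of the clock peptide PDF, was at 5.84, 4.77 and 5.67 CPM in yki3SA tubules, against 16.8, 12.7 and 14.6 CPM in control tubules (log2 fold change -1.44, SE 0.20, adjusted p = 6.0e-04). moody, an orphan receptor best known from the blood-brain barrier, was at 62.01, 83.8 and 65.2 CPM in yki3SA tubules, against 121, 182 and 100.4 CPM in control tubules (log2 -0.93, adjusted p = 0.011). The 1 receptor that rose in every alternative was TkR86C, a receptor of the tachykinin group, at 13.3, 2.31 and 3.499 CPM in yki3SA tubules, against 0.672, 0.215 and 0.784 CPM in control tubules (log2 fold change 3.51, SE 0.68, adjusted p = 0.0043). Its yki3SA library 1 was several times above the other two, and all 3 were above control. It was the single rise without 7 of the 9 libraries fitted, each left out in turn.

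Ecdysone and juvenile hormone genes gave 2 rises and 4 falls among 30 tested (6.67% and 13.3%, beside 16.2% and 14% of all genes). The falls were 2 without control library 1 or 3 or yki3SA library 2. Under total counts the balance turned, to 7 rises and 1 fall. Oatp74D, the importer that carries ecdysone into cells, was at 37.6, 34.5 and 28.04 CPM in yki3SA tubules, against 114, 65.8 and 84.8 CPM in control tubules (log2 fold change -1.40, SE 0.23, adjusted p = 0.0016). MsrA, an ecdysone-induced methionine sulfoxide reductase, was at 26.9, 20.2 and 17.7 CPM in yki3SA tubules, against 6.22, 9.66 and 9.46 CPM in control tubules (log2 fold change 1.35, SE 0.21, adjusted p = 0.0014). Neither gene overlapped between the groups.

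The autophagy genes that were called all rose. Of 28 tested, 15 rose and none fell (53.6% called, beside 30.1% of all genes), with a median of 0.43. The count was 9 without control library 1 or 3 and 8 without yki3SA library 2. The largest fold among those named was that of Syx17, the SNARE of the autophagosome, at 26.02, 26.03 and 28.3 CPM in yki3SA tubules, against 14.6, 11.5 and 10.6 CPM in control tubules (log2 fold change 1.13, SE 0.15, adjusted p = 4.3e-04); it overlaps CG15019 on the other strand. Atg2, a lipid transfer protein of the growing membrane, was at 119, 150.2 and 151 CPM in yki3SA tubules, against 86.7, 74.7 and 67.3 CPM in control tubules. Atg8a, the ubiquitin-like protein on the autophagosome, was at 485, 419 and 391 CPM in yki3SA tubules, against 269.8, 290.4 and 249.6 CPM in control tubules. Vps15, a subunit of the class III phosphatidylinositol kinase, was at 52.8, 65.02 and 56.2 CPM in yki3SA tubules, against 34.7, 38.6 and 31.3 CPM in control tubules. The log2 fold changes of Atg2, Atg8a and Vps15 were 0.88, 0.68 and 0.73, and none of these overlapped between the groups. Of 30 TOR and AMPK genes 8 rose and 1 fell (26.7% and 3.33%, beside 16.2% and 14% of all genes). Of this list 4 rose without control library 1 and 5 without control library 3, and 17 rose and 0 fell with total counts. RagA-B, the GTPase that brings TORC1 to the lysosome, was at 65.2, 51.5 and 45.6 CPM in yki3SA tubules, against 28.98, 27.3 and 27.5 CPM in control tubules (log2 fold change 0.95, SE 0.16, adjusted p = 0.0019), and Lkb1, the kinase upstream of AMPK, at 41.6, 44.2 and 43.5 CPM in yki3SA tubules, against 23.7, 29.9 and 24.9 CPM in control tubules (log2 fold change 0.72, SE 0.13, adjusted p = 0.0028). Both overlap a gene on the other strand, CAHbeta and CG9588. Genes for cell death gave 4 rises and 4 falls among 21 (19% each way, beside 16.2% and 14% of all genes, and 6 rises and 0 falls with total counts). The caspase Damm was at 247, 237 and 219.8 CPM in yki3SA tubules, against 75.2, 79.00 and 75.3 CPM in control tubules (log2 fold change 1.62, SE 0.12, adjusted p = 2.1e-05), and the caspase Decay at 342, 313 and 268 CPM in yki3SA tubules, against 201, 225 and 191 CPM in control tubules (log2 0.58). All of the yki3SA libraries were above all control libraries for both caspases. The 4 falls were fewer, 0 or 1, without control library 1 or 2, any yki3SA library or ITP-i library 1, and none of the falling genes is named.

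Genes for the small GTPases and membrane fusion proteins of secretion rose more often than they fell in yki3SA tubules, while the called enzymes that finish peptides were lower. Of 37 Rab GTPase and exocyst genes, 14 rose and 2 fell (37.8% rose, and 29 rose and 1 fell with total counts), with a median of 0.38. Rab10, a GTPase of polarised secretion, was at 196, 201 and 180.5 CPM in yki3SA tubules, against 94.6, 106 and 94.999 CPM in control tubules (log2 fold change 0.96, SE 0.10, adjusted p = 1.4e-04). RabX1 was at 54.9, 63.2 and 44.3 CPM in yki3SA tubules, against 13.1, 20.5 and 13.1 CPM in control tubules (log2 fold change 1.80, SE 0.20, adjusted p = 1.6e-04). Rab2, which acts in the Golgi and on lysosomes, was at 256, 218 and 195 CPM in yki3SA tubules, against 120.1, 115.1 and 120.4 CPM in control tubules (log2 fold change 0.91, SE 0.11, adjusted p = 3.6e-04). These 3 were higher in every yki3SA library. Rep, the escort protein that presents Rabs for prenylation, was lower, at 22.6, 19.9 and 18.4 CPM in yki3SA tubules, against 44.04, 89.4 and 50.001 CPM in control tubules (log2 fold change -1.59, SE 0.25, adjusted p = 0.0013), and it overlaps hpo on the other strand. Of 26 genes for regulated exocytosis 9 rose and 1 fell (34.6% rose, and 9 rose and 0 fell with total counts, and 9 rose and 4 fell with DESeq2). The list median of 0.08 was close to the 0.07 of all tested genes, and it was -0.07 without yki3SA library 3. Syt4, a synaptotagmin of secretory vesicles, had the largest fold among the genes named from this list, with 27.2, 29.7 and 28.5 CPM in yki3SA tubules, against 0.299, 1.53 and 0.633 CPM in control tubules (log2 fold change 5.11, SE 0.43, adjusted p = 4.0e-05). Esyt2, a tether between the endoplasmic reticulum and the plasma membrane, was at 209, 269.8 and 235 CPM in yki3SA tubules, against 33.9, 70.3 and 32.4 CPM in control tubules (log2 fold change 2.38, SE 0.28, adjusted p = 2.3e-04). Rop, the Sec1-type partner of syntaxin, and Syb, the synaptobrevin of non-neuronal cells, changed less. Rop was at 205.4, 197 and 172 CPM in yki3SA tubules, against 119.8, 135 and 121 CPM in control tubules (log2 0.62), and Syb at 278, 235 and 210.4 CPM in yki3SA tubules, against 160.3, 166 and 143 CPM in control tubules (log2 0.62). Synaptotagmins are well known from neurons, so the neuron markers are given beside Syt4. The 16 neuron markers summed to 25.7 to 33 CPM in yki3SA tubules and 32.4 to 43.5 CPM in control tubules, with 0 of 13 called in either direction and a median log2 fold change of -0.88. Their part in the result for Syt4 was not tested.

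Of 10 propeptide processing genes none rose and 3 fell (30% fell, beside 14% of all genes), with a median log2 fold change of -0.28. With total counts 1 rose and 2 fell, with a median of 0.02. Phm, the monooxygenase that amidates peptide hormones, was at 64.1, 70.6 and 58.4 CPM in yki3SA tubules, against 146, 137 and 133 CPM in control tubules (log2 fold change -1.11, SE 0.12, adjusted p = 1.7e-04), and it overlaps Sox14 on the other strand. Silver (svr), a carboxypeptidase D, was at 66.2, 82.6 and 69.5 CPM in yki3SA tubules, against 109.9, 152 and 114.7 CPM in control tubules (log2 fold change -0.78, SE 0.15, adjusted p = 0.0037). Both were lower in every yki3SA library. Of 38 endocytosis and ESCRT genes 11 rose and 3 fell (28.9% and 7.89%, beside 16.2% and 14% of all genes). The list had 5 or 6 rises without control library 1 or 3 or yki3SA library 1 or 2, and 18 rises and 1 fall with total counts. Clathrin light chain (Clc) was at 253, 204 and 186 CPM in yki3SA tubules, against 153, 145 and 130.1 CPM in control tubules (log2 0.59). The endocytic adaptor Dab was lower, at 145, 139 and 139.6 CPM in yki3SA tubules, against 244, 189 and 222 CPM in control tubules (log2 -0.63).

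Golgi glycosyltransferases split, with 6 rises and 7 falls among 36 genes (16.7% and 19.4%, beside 16.2% and 14% of all genes). The rises were 3 without control library 2 or 3 or yki3SA library 2 or 3, and the falls 4 without control library 1. With total counts there were 10 rises and 5 falls. Pgant3, one of the enzymes that start mucin-type O-glycans, was at 116, 143 and 115.02 CPM in yki3SA tubules, against 27.2, 33.9 and 29.7 CPM in control tubules (log2 fold change 2.04, SE 0.13, adjusted p = 8.2e-06). Pgant9, of the same family, was lower, at 105, 123 and 108 CPM in yki3SA tubules, against 245, 188 and 159 CPM in control tubules (log2 fold change -0.82, SE 0.17, adjusted p = 0.0067). C1GalTA, which adds the next sugar to that glycan, was at 31.7, 30.8 and 29.7 CPM in yki3SA tubules, against 93.6, 39.98 and 102 CPM in control tubules (log2 fold change -1.35, SE 0.28, adjusted p = 0.0057). Its control library 2 lay far below the other two control libraries, yet above all yki3SA libraries. In N-glycan trimming, the mannosidase alpha-Man-Ia was at 108, 93.6 and 80.4 CPM in yki3SA tubules, against 47.6, 41.6 and 35.1 CPM in control tubules (log2 fold change 1.18, SE 0.15, adjusted p = 4.4e-04), and alpha-Man-IIa, which acts later, was at 28.2, 29.8 and 31.1 CPM in yki3SA tubules, against 51.3, 44.01 and 46.5 CPM in control tubules (log2 fold change -0.67, SE 0.11, adjusted p = 0.0015). The first was higher and the second lower in every yki3SA library.

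Among genes for secreted proteins, the chitinase-like family moved in both directions. Of 27 chitin and imaginal disc growth factor (Idgf) genes, 5 rose and 5 fell (18.5% each way, beside 16.2% and 14% of all genes). With total counts these were 6 and 4. All 6 Idgf genes of the table that are named Idgf1 to Idgf6 were called, in opposite directions. Idgf proteins are chitinase relatives without enzyme activity that act as secreted growth factors. Idgf1 was at 644, 685 and 667 CPM in yki3SA tubules, against 63.7, 79.5 and 51.1 CPM in control tubules (log2 fold change 3.36, SE 0.17, adjusted p = 2.7e-06). Idgf3 was at 1973, 2016 and 1597 CPM in yki3SA tubules, against 663, 1131 and 587 CPM in control tubules (log2 fold change 1.23, SE 0.23, adjusted p = 0.0039). Both rose in all 3 yki3SA libraries. The 4 other members fell. Idgf2 was at 12.2, 15.96 and 14.1 CPM in yki3SA tubules, against 23.2, 25.2 and 34.9 CPM in control tubules (log2 fold change -0.98, SE 0.18, adjusted p = 0.0036). Idgf4 was at 23.2, 26.8 and 38.2 CPM in yki3SA tubules, against 59.4, 64.8 and 80.4 CPM in control tubules (log2 fold change -1.21, SE 0.25, adjusted p = 0.0054). Idgf6 was at 16.7, 28.4 and 33.1 CPM in yki3SA tubules, against 61.9, 57.8 and 91.1 CPM in control tubules (log2 fold change -1.43, SE 0.27, adjusted p = 0.0034). All 3 were lower in every yki3SA library than in any control library. Idgf5 was at 3.06, 5.48 and 3.23 CPM in yki3SA tubules, against 10.001, 6.65 and 9.77 CPM in control tubules (log2 fold change -1.17, SE 0.28, adjusted p = 0.013). No Idgf gene overlapped between the groups. Idgf genes are expressed in fat body too, whose marker sums were lower in yki3SA libraries, and the part of that in the result was not tested. The chitinases Cht4 and Cht5 rose. Cht4 was at 122, 251 and 109.6 CPM in yki3SA tubules, against 15.8, 31.2 and 13.3 CPM in control tubules (log2 fold change 3.002, SE 0.39, adjusted p = 4.4e-04), and Cht5 at 27.4, 15.98 and 11.9 CPM in yki3SA tubules, against 4.18, 4.11 and 3.65 CPM in control tubules (log2 fold change 2.21, SE 0.30, adjusted p = 5.4e-04). In Cht4 the second library of each group was the highest of its group.

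Other secreted families differed in direction. Of 31 serpin, clip-domain protease and melanization genes none rose and 9 fell (3 without control library 3, and 5 without yki3SA library 1 or 3, and 4 with total counts), with a median of -0.65. Fat body markers (8 lower, 1 higher of 16 tested) and hemocyte markers (7 lower, 2 higher of 15 tested) were more often lower than higher in the same libraries. The hemocyte marker sums overlapped between the groups, and the part of either marker list in this result was not tested. Spn28Dc, a serpin that holds back melanization, was at 1.91, 3.78 and 1.62 CPM in yki3SA tubules, against 4.802, 7.03 and 7.72 CPM in control tubules (log2 fold change -1.42, SE 0.34, adjusted p = 0.012). The thioester protein Tep4 was at 93.5, 128 and 94.5 CPM in yki3SA tubules, against 22.8, 49.99 and 33.2 CPM in control tubules (log2 fold change 1.58, SE 0.27, adjusted p = 0.0022). In the Niemann-Pick type C family, which binds sterols, Npc2a was at 114.7, 144 and 99.5 CPM in yki3SA tubules, against 36.2, 58.98 and 39.00 CPM in control tubules (log2 fold change 1.42, SE 0.21, adjusted p = 9.9e-04), and Npc2h was at 1.36, 2.73 and 1.51 CPM in yki3SA tubules, against 13.4, 8.02 and 18.5 CPM in control tubules (log2 fold change -2.83, SE 0.43, adjusted p = 0.0012). Npc2a was higher and Npc2h lower in every yki3SA library. Of 24 odorant-binding protein genes tested, none rose and 3 fell (12.5% fell, beside 14% of all genes). The falls were 5 without yki3SA library 1 and 8 without yki3SA library 3. Obp99c was at 8.67, 12.2 and 8.77 CPM in yki3SA tubules, against 50.9, 38.2 and 66.9 CPM in control tubules (log2 fold change -2.40, SE 0.26, adjusted p = 1.5e-04), and Obp99a, which is a fat body marker here, at 0.436, 0.358 and 0.1004 CPM in yki3SA tubules, against 29.9, 14.3 and 34.9 CPM in control tubules (log2 fold change -6.53, SE 0.55, adjusted p = 3.9e-05). The fat body marker sums given above fell with both, and their part in the result was not tested.

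**Figure D4:**
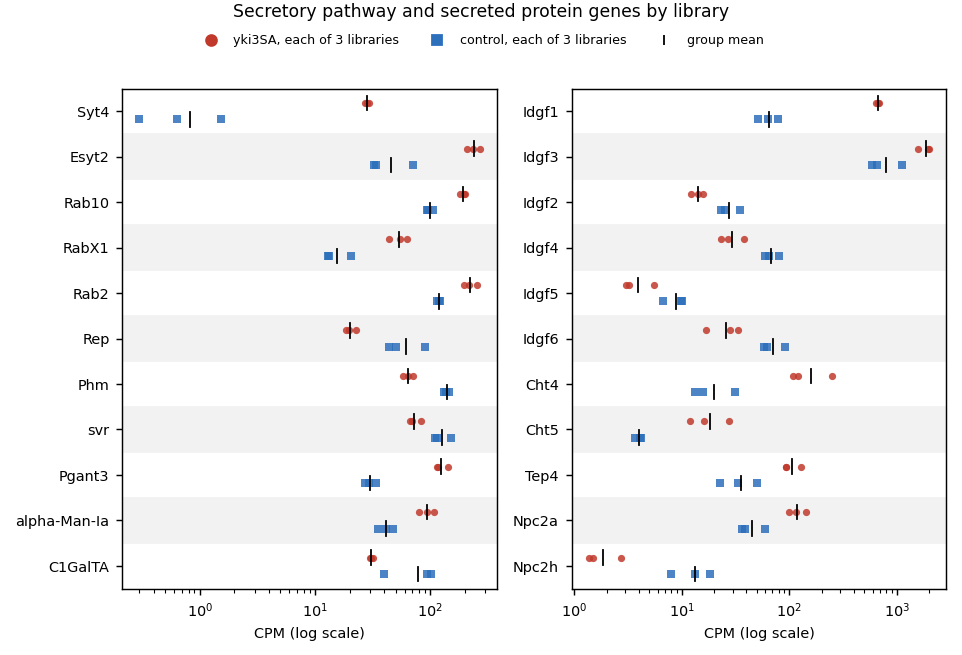
CPM in each library (horizontal log axis) of genes of the secretory pathway (left) and of secreted proteins (right, from Idgf1 on), with yki3SA as red circles above control as blue squares and the group means as vertical bars. Idgf1 and Idgf3 lie higher in yki3SA, and Idgf2, Idgf4, Idgf5 and Idgf6 lie lower.

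Genes for carriers of organic solutes fell more often than they rose in yki3SA tubules. Of 23 tested genes in the list of organic cation transporters of the SLC22 type, 12 fell and 2 rose (52.2% fell, beside 14% of all genes), and the median log2 fold change was -0.83. The list does not hold every carrier of this type, and CG44098, given below among unnamed genes that rose, is not in it. The count of falls was 6 without control library 1 and 7 without yki3SA library 2. CG7084, a carcinine transporter in the authors' deposited annotation, was at 1424, 1402 and 1111 CPM in yki3SA tubules, against 6029, 3292 and 3875 CPM in control tubules (log2 fold change -1.75, SE 0.25, adjusted p = 7.8e-04). CG17752 was at 549, 453 and 305 CPM in yki3SA tubules, against 4722, 2410 and 2668 CPM in control tubules (log2 fold change -2.91, SE 0.35, adjusted p = 2.7e-04). CG6126 was at 176, 209 and 136 CPM in yki3SA tubules, against 1133, 1010 and 659 CPM in control tubules (log2 fold change -2.43, SE 0.23, adjusted p = 7.5e-05). Each was lower in every yki3SA library. CG6231 moved the other way, at 1024, 1037 and 741 CPM in yki3SA tubules, against 295, 585 and 357 CPM in control tubules (log2 fold change 1.18, SE 0.25, adjusted p = 0.0062). Of 13 SLC16 monocarboxylate carriers none rose and 2 fell (15.4% fell, beside 14% of all genes), with a median log2 fold change of -0.20 (2 rose and 2 fell with total counts, with a median of 0.08). CG8028 was at 149, 106 and 60.1 CPM in yki3SA tubules, against 1393, 703 and 921 CPM in control tubules (log2 fold change -3.26, SE 0.48, adjusted p = 9.1e-04). CG8468, which overlaps Opa1 on the other strand, was at 488, 400.5 and 339 CPM in yki3SA tubules, against 1663, 712 and 1769 CPM in control tubules (log2 fold change -1.76, SE 0.34, adjusted p = 0.0045). In the SLC17 and related list (1 rise and 5 falls among 19 with a median of -0.13, or 2 rises and 5 falls with a median of 0.17 with total counts), the phosphate carrier NaPi-T was at 1322, 1476 and 1204 CPM in yki3SA tubules, against 4049, 2786 and 3055 CPM in control tubules (log2 fold change -1.31, SE 0.19, adjusted p = 9.1e-04). MFS9 was at 1.72, 0.201 and 0.921 CPM in yki3SA tubules, against 42.8, 27.3 and 26.6 CPM in control tubules (log2 fold change -5.11, SE 0.57, adjusted p = 1.8e-04). The principal cell markers summed lower in yki3SA libraries as well, and the part of that in these results was not tested.

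Of 41 ABC transporters, 15 fell and 6 rose (3 rose without control library 1 or yki3SA library 2), and with total counts 10 fell and 10 rose. CG4822 was at 33.7, 33.4 and 30.2 CPM in yki3SA tubules, against 6.74, 7.41 and 10.6 CPM in control tubules and CG9664 at 1.85, 1.903 and 1.72 CPM in yki3SA tubules, against 15.1, 14.7 and 8.32 CPM in control tubules. The deposited annotation of the authors gives both ABCG-type transporters as relatives, and they moved in opposite directions (CG4822, log2 fold change 1.98, SE 0.21, adjusted p = 1.4e-04; CG9664, log2 fold change -2.80, SE 0.27, adjusted p = 8.3e-05). The drug exporter Mrp4 was at 197, 262 and 216 CPM in yki3SA tubules, against 402, 366 and 401 CPM in control tubules (log2 -0.79). Of 35 amino acid transporters, 15 fell and 2 rose, with a median of -0.51, and 9 fell without control library 3 or yki3SA library 1. Under total counts 9 fell and 5 rose. Eaat1, the glutamate transporter, was at 44.1, 41.3 and 43.99 CPM in yki3SA tubules, against 161, 148 and 195 CPM in control tubules (log2 fold change -1.96, SE 0.12, adjusted p = 5.8e-06). Inebriated (ine), a sodium- and chloride-coupled carrier known from the tubule, was at 159.9, 189 and 152 CPM in yki3SA tubules, against 359, 256 and 269 CPM in control tubules (log2 fold change -0.82, SE 0.16, adjusted p = 0.0049). NAAT1, a nutrient amino acid transporter of the gut, was the exception named, at 331, 321 and 259 CPM in yki3SA tubules, against 92.8, 122 and 86.8 CPM in control tubules (log2 fold change 1.59, SE 0.20, adjusted p = 4.2e-04). The gut marker sums given above were lower in yki3SA libraries, the other direction from NAAT1, and their part in this result was not tested.

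Among ppk, TRP and Piezo channels, 3 rose and 3 fell of 25 tested (12% each way, beside 16.2% and 14% of all genes). nompC, the mechanosensitive TRPN channel of sensory neurons, was at 10.9, 10.5 and 8.97 CPM in yki3SA tubules, against 1.12, 0.5099 and 0.723 CPM in control tubules (log2 fold change 3.68, SE 0.30, adjusted p = 3.6e-05). The neuron marker sums are given above beside Syt4, and their part in this result was not tested. Pkd2, a TRPP channel, was at 15.5, 8.86 and 8.102 CPM in yki3SA tubules, against 4.23, 2.63 and 2.98 CPM in control tubules (log2 fold change 1.72, SE 0.27, adjusted p = 0.0014). Water witch (wtrw), a TRPA channel, was lower, at 242, 300.4 and 276 CPM in yki3SA tubules, against 520.2, 509 and 526 CPM in control tubules (log2 fold change -0.93, SE 0.12, adjusted p = 3.5e-04). All 3 channels had groups that did not overlap.

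Cytoskeletal and adhesion genes rose or were not called. Of 29 tested, 13 rose and none fell (44.8%), with a median of 0.36. Cofilin (tsr), which cuts actin filaments, was at 529, 428 and 402 CPM in yki3SA tubules, against 239.8, 232 and 196 CPM in control tubules (log2 fold change 1.02, SE 0.13, adjusted p = 4.7e-04), and overlaps IntS1 on the other strand. The myosin light chain sqh was at 386, 333 and 287 CPM in yki3SA tubules, against 150.2, 196 and 147 CPM in control tubules (log2 fold change 1.03, SE 0.15, adjusted p = 8.6e-04). Vinculin (Vinc), which links integrins to actin, was at 238, 274 and 229.8 CPM in yki3SA tubules, against 100.04, 139.9 and 101 CPM in control tubules (log2 fold change 1.12, SE 0.18, adjusted p = 0.0015). The cytoplasmic actin Act42A was at 435, 436 and 309 CPM in yki3SA tubules, against 20.8, 61.9 and 26.4 CPM in control tubules (log2 fold change 3.43, SE 0.37, adjusted p = 1.6e-04). Its coding sequence is nearly the same as that of Act5C, so how reads were split between them is uncertain. The 24 muscle markers summed to 1310 to 1500 CPM in yki3SA tubules and 1290 CPM in each control library, with 3 of 22 tested higher and 1 lower. Tetraspanins of the 42E cluster, small membrane proteins coded side by side, moved both ways. Tsp42El was at 48.3, 57.6 and 51.01 CPM in yki3SA tubules, against 9.11, 17.1 and 11.03 CPM in control tubules (log2 fold change 2.07, SE 0.22, adjusted p = 1.3e-04), and Tsp42Ei at 21.99, 25.96 and 15.2 CPM in yki3SA tubules, against 5.399, 6.06 and 4.94 CPM in control tubules (log2 fold change 1.94, SE 0.20, adjusted p = 1.3e-04). Tsp42Eq was at 98.4, 110.3 and 86.9 CPM in yki3SA tubules, against 342, 297 and 267 CPM in control tubules (log2 fold change -1.62, SE 0.13, adjusted p = 3.5e-05). Tsp42El and Tsp42Ei were higher and Tsp42Eq lower in every yki3SA library. Over all 37 tetraspanin and innexin genes 4 rose and 5 fell (10.8% and 13.5%, beside 16.2% and 14% of all genes). With total counts 11 rose and 4 fell.

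Genes that build ribosomes formed the list with the largest share of calls among those examined. Of 43 tested, 32 rose and 1 fell (76.7% called), with a median of 0.68 on the log2 scale, and most changes were under 2-fold, since 1 member passed that size. The count of rises was 19 without control library 1 or yki3SA library 1 and 21 without control library 2. Polr1B, the second subunit of RNA polymerase I, was at 27.6, 26.5 and 23.3 CPM in yki3SA tubules, against 13.1, 12.9 and 14.7 CPM in control tubules (log2 fold change 0.93, SE 0.13, adjusted p = 6.1e-04). The RNA helicase pitchoune (pit) was at 54.99, 45.9 and 52.9 CPM in yki3SA tubules, against 27.6, 22.4 and 30.4 CPM in control tubules (log2 fold change 0.94, SE 0.13, adjusted p = 8.5e-04). Ns2, a nucleostemin-type GTPase, was at 83.4, 66.7 and 67.3 CPM in yki3SA tubules, against 44.2, 41.996 and 48.4 CPM in control tubules (log2 fold change 0.69, SE 0.12, adjusted p = 0.0027). No library of one group reached the range of the other for these 3 genes. Splicing and mRNA processing genes gave 9 rises among 61 (14.8%, beside 16.2% of all genes), and 0 to 5 without any 1 library other than ITP-i library 3, but 33 with total counts. Chromatin regulators gave 6 rises and 2 falls among 53 (11.3% and 3.77%, beside 16.2% and 14% of all genes). They gave 3 rises without control library 2 or 3 or yki3SA library 2, and 13 rises and 1 fall with total counts. Caf1-55, a histone chaperone subunit, was at 36.96, 37.9 and 45.01 CPM in yki3SA tubules, against 22.8, 26.97 and 23.9 CPM in control tubules (log2 fold change 0.70, SE 0.13, adjusted p = 0.0028). HDAC6, the tubulin deacetylase, was lower, at 1148, 1041 and 1003 CPM in yki3SA tubules, against 2040, 1572 and 1767 CPM in control tubules (log2 fold change -0.75, SE 0.15, adjusted p = 0.0052).

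Among 31 small RNA genes 3 rose and none fell (9.68% rose, beside 16.2% of all genes, and 7 rose with total counts). Dcr-2, the Dicer of the antiviral siRNA pathway, was at 132, 127 and 117 CPM in yki3SA tubules, against 55.98, 57.1 and 48.6 CPM in control tubules (log2 fold change 1.22, SE 0.10, adjusted p = 3.9e-05), and overlaps Rab4 on the other strand. Cutoff (cuff), a factor of germline piRNA transcription, was at 6.38, 5.06 and 4.64 CPM in yki3SA tubules, against 0.572, 0.483 and 0.392 CPM in control tubules (log2 fold change 3.46, SE 0.30, adjusted p = 4.9e-05). It overlaps ERp60 on the other strand, and ovary markers were lower in yki3SA libraries. Without yki3SA library 3, 3 small RNA genes were lower and the list median turned to -0.32. That library had the highest ovary marker sum of its genotype, and the part of ovary tissue in the results for cuff and for this list was not tested. Of 41 DNA damage and repair genes, 8 rose and 2 fell (19.5% and 4.88%, beside 16.2% and 14% of all genes). Of this list 3 to 5 rose without any control library or yki3SA library 1 or 3, and 16 rose and 1 fell with total counts. spel1, the MutS homologue of mismatch repair, was at 48.01, 49.8 and 49.6 CPM in yki3SA tubules, against 21.2, 14.5 and 17.9 CPM in control tubules (log2 fold change 1.46, SE 0.16, adjusted p = 1.5e-04), and Ku80, of end joining, at 56.03, 38.1 and 41.3 CPM in yki3SA tubules, against 20.5, 16.3 and 13.5 CPM in control tubules (log2 fold change 1.43, SE 0.22, adjusted p = 0.0014). Both were higher in every yki3SA library.

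Genes for leucine breakdown, folate metabolism, esterases and ceramide synthesis were among the metabolic genes that fell in yki3SA tubules. Of 38 genes of amino acid breakdown and one-carbon metabolism, 16 fell and 6 rose (3 rose without control library 1 or 2 or yki3SA library 1), and with total counts 10 fell and 9 rose. Leucine breakdown passes through methylcrotonyl-CoA carboxylase, whose subunits Mccc1 and Mccc2 were both lower. Mccc1 was at 35.3, 40.6 and 39.3 CPM in yki3SA tubules, against 104.3, 79.97 and 86.6 CPM in control tubules (log2 fold change -1.23, SE 0.14, adjusted p = 1.7e-04), and overlaps faf on the other strand. Mccc2 was at 28.1, 28.2 and 30.98 CPM in yki3SA tubules, against 94.02, 68.1 and 75.1 CPM in control tubules (log2 fold change -1.44, SE 0.16, adjusted p = 1.8e-04). Pugilist (pug), an enzyme of the folate cycle, was at 32.5, 42.1 and 33.8 CPM in yki3SA tubules, against 103, 80.7 and 83.998 CPM in control tubules (log2 fold change -1.30, SE 0.15, adjusted p = 2.0e-04). Of 29 carboxylesterases, dehydrogenases and sulfotransferases, 14 fell and 1 rose (11 fell and 3 rose with total counts). Sodh1, a sorbitol dehydrogenase, was at 22.1, 16.5 and 12.2 CPM in yki3SA tubules, against 179.7, 114 and 132 CPM in control tubules (log2 fold change -3.07, SE 0.24, adjusted p = 2.4e-05). alpha-Est6 was at 1.36, 0.851 and 0.586 CPM in yki3SA tubules, against 17.1, 15.7 and 12.6 CPM in control tubules (log2 fold change -4.04, SE 0.31, adjusted p = 2.5e-05). Its neighbour alpha-Est4aPsi, named as a pseudogene of the same family, was at 29.4, 38.3 and 38.9 CPM in yki3SA tubules, against 309, 358 and 315 CPM in control tubules (log2 fold change -3.20, SE 0.15, adjusted p = 1.3e-06), and reads shared among copies are uncertain. Of 21 fatty acid synthesis genes 7 fell and 1 rose (0 rose without control library 1 or yki3SA library 2, and 3 fell and 2 rose with total counts), with acetyl-CoA carboxylase (ACC) at 147, 167 and 114 CPM in yki3SA tubules, against 241, 255 and 219 CPM in control tubules (log2 fold change -0.74, SE 0.16, adjusted p = 0.0074). Ceramide synthase (schlank) was at 73.7, 84.97 and 74.6 CPM in yki3SA tubules, against 154, 171 and 169.8 CPM in control tubules (log2 fold change -1.08, SE 0.11, adjusted p = 9.1e-05), with 5 falls and 1 rise among 18 sphingolipid and phospholipid genes (3 falls without control library 2 or yki3SA library 1 or 3, and 3 falls beside 4 rises with total counts). Fat body marker sums were lower in the same libraries, and their part in the falls of lipid genes was not tested. In nucleotide salvage, the secreted adenosine deaminase Adgf-A was at 73.1, 84.7 and 65.5 CPM in yki3SA tubules, against 9.68, 10.8 and 9.01 CPM in control tubules (log2 fold change 2.92, SE 0.14, adjusted p = 1.5e-06), and NT5E-2, an ecto-nucleotidase of the step before it, was at 267, 308 and 265 CPM in yki3SA tubules, against 640.1, 634 and 545 CPM in control tubules (log2 fold change -1.11, SE 0.12, adjusted p = 1.4e-04). Adgf-A rose and NT5E-2 fell, with no overlap between the groups in either gene.

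Large changes were also found among unnamed genes. Of 3489 CG genes tested, 564 rose and 501 fell, of which 207 rose and 332 fell at least 2-fold. Of those with a relative named in the deposited annotation of the authors, 33.2% of 1874 were called, and of those without one, 27.4% of 1615. The 10 largest rises and 10 largest falls were taken among called genes that reached 10 CPM in either group's mean and whose groups did not overlap. CG14275 was at 61.1, 66.6 and 41.01 CPM in yki3SA tubules, against 0.149, 0.617 and 0.904 CPM in control tubules (log2 fold change 6.68, SE 0.63, adjusted p = 6.8e-05). CG14302 was at 79.9, 70.8 and 89.04 CPM in yki3SA tubules, against 0.647, 2.66 and 0.301 CPM in control tubules (log2 fold change 6.04, SE 0.71, adjusted p = 2.4e-04). CG12910, steady within both groups, was at 54.4, 55.2 and 46.2 CPM in yki3SA tubules, against 3.23, 2.496 and 2.62 CPM in control tubules (log2 fold change 4.22, SE 0.21, adjusted p = 1.6e-06), and overlaps CAP on the same strand. CG14275, CG14302 and CG12910 have no relative in that annotation. CG44098, annotated there as an SLC22-type carrier but not in the list of such carriers counted above, was at 18.2, 19.9 and 19.2 CPM in yki3SA tubules, against 0.0498, 0.644 and 0.121 CPM in control tubules (log2 fold change 6.12, SE 0.58, adjusted p = 7.5e-05), and overlaps atms on the other strand. CG12780, with a bacteria-binding protein as its annotated relative, was at 675, 427 and 447 CPM in yki3SA tubules, against 33.96, 46.6 and 38.8 CPM in control tubules (log2 fold change 3.70, SE 0.25, adjusted p = 1.0e-05). CG15347 was at 520.05, 596 and 390.1 CPM in yki3SA tubules, against 75.3, 58.7 and 55.4 CPM in control tubules (log2 fold change 2.99, SE 0.19, adjusted p = 8.1e-06), and has no annotated relative. The other 4, CG14246, CG15431, CG5888 and CG15210, rose by 2.998 to 4.76 on the log2 scale.

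Among the falls, CG9512, a glucose dehydrogenase in the deposited annotation of the authors, was at 50.9, 57.2 and 36.3 CPM in yki3SA tubules, against 4709, 3367 and 2852 CPM in control tubules (log2 fold change -6.24, SE 0.26, adjusted p = 6.3e-07). CG4741 was at 0.927, 0.806 and 0.586 CPM in yki3SA tubules, against 85.8, 64.3 and 56.2 CPM in control tubules (log2 fold change -6.49, SE 0.24, adjusted p = 5.5e-07), and overlaps Adck1 and CG42360 on the other strand. CG12934 was at 0.873, 0.515 and 0.385 CPM in yki3SA tubules, against 15.5, 16.3 and 17.7 CPM in control tubules (log2 fold change -4.82, SE 0.32, adjusted p = 1.0e-05). CG8773, an aminopeptidase in that annotation, was at 2.89, 4.95 and 2.76 CPM in yki3SA tubules, against 98.7, 93.5 and 102 CPM in control tubules (log2 fold change -4.80, SE 0.26, adjusted p = 3.1e-06). Neither CG12934 nor CG8773 overlapped between the groups, which was a condition of the choice. Other falls had digestive relatives and varied among control libraries. CG6295, a lipase relative, was at 0.409, 0.336 and 0.0167 CPM in yki3SA tubules, against 49.6, 13.1 and 30.5 CPM in control tubules, and CG12374, a carboxypeptidase relative, was at 2.84, 0.358 and 0.418 CPM in yki3SA tubules, against 152, 65.9 and 121 CPM in control tubules. Both were lower in every yki3SA library than in any control library, as the choice of these genes required. CG7542 and CG3916, serine protease relatives, and CG5107, with no relative given, had log2 fold changes of -5.998 to -5.92, and that of CG13566 was -6.42. The gut marker sums given above were lower in yki3SA libraries as well, and their part in the falls was not tested.

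**Figure D5:**
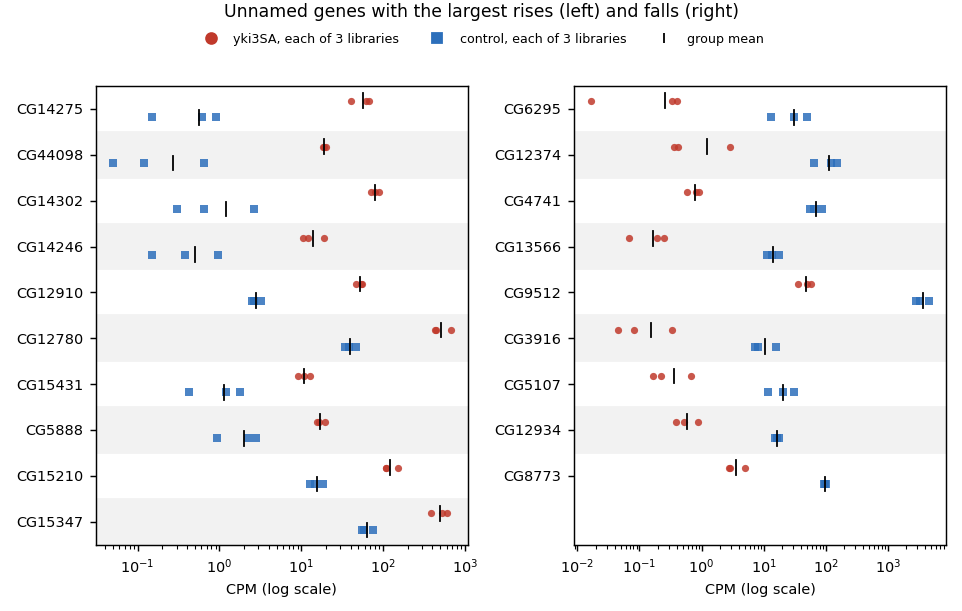
CPM in each library (horizontal log axis) of unnamed genes with the largest rises (left) and falls (right), with yki3SA as red circles above control as blue squares and the group means as vertical bars. CG7542 is left out because 1 yki3SA library had 0 counts. Genes were taken only where the groups do not overlap, and CG9512 is far lower in yki3SA than in control.

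Named genes that belong to no list were taken by size of change. Of the 12 largest rises, 6 code for antimicrobial peptides or a peptidoglycan receptor (AttD, DptA, Dro, DptB, PGRP-SD and AttA), with reads of AttA uncertain because of its near copy AttB. The largest was Nazo, an antiviral effector of the STING pathway, at 302, 208 and 197 CPM in yki3SA tubules, against 0.622, 1.42 and 1.02 CPM in control tubules (log2 fold change 7.85, SE 0.31, adjusted p = 5.5e-07). bero, a Ly6-type membrane-anchored protein, was at 398, 388 and 315 CPM in yki3SA tubules, against 18.5, 21.4 and 21.5 CPM in control tubules (log2 fold change 4.17, SE 0.15, adjusted p = 5.5e-07). mtt, related to metabotropic glutamate receptors, was at 44.2, 45.8 and 43.1 CPM in yki3SA tubules, against 1.27, 2.52 and 2.23 CPM in control tubules (log2 fold change 4.47, SE 0.27, adjusted p = 5.5e-06), and overlaps Mal-A8 on the other strand. The largest fall was that of CAH5, a carbonic anhydrase relative in the deposited annotation of the authors, at 0.109, 0 and 0 CPM in yki3SA tubules, against 52.7, 40.7 and 20.5 CPM in control tubules. It had 4 counts in the 3 yki3SA libraries together and 4317 in the 3 control libraries together, and its fitted log2 fold change of -10.21 (SE 0.85, adjusted p = 3.8e-05) depends on the prior count. Also among the 12 largest falls were 4 genes of detoxification (Ugt37B1, Cyp6g1, GstZ2 and Ugt35C1). Cyp6g1, the P450 of insecticide resistance, was at 57.6, 86.1 and 70.5 CPM in yki3SA tubules, against 2547, 2652 and 1340 CPM in control tubules (log2 fold change -4.93, SE 0.30, adjusted p = 5.8e-06). The EGF receptor adaptor Egfrap was at 2.32, 2.33 and 2.29 CPM in yki3SA tubules, against 21.8, 22.4 and 26.2 CPM in control tubules (log2 fold change -3.34, SE 0.17, adjusted p = 2.6e-06). smp-30, a regucalcin-type protein, was at 83.2, 65.7 and 67.8 CPM in yki3SA tubules, against 625, 634 and 733 CPM in control tubules (log2 fold change -3.20, SE 0.15, adjusted p = 1.3e-06). Scp2, a calcium-binding protein of the sarcoplasm, was at 67.1, 92.8 and 72.6 CPM in yki3SA tubules, against 1284, 848 and 898 CPM in control tubules (log2 fold change -3.70, SE 0.20, adjusted p = 3.1e-06). That the groups did not overlap was a condition for taking these genes.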

How the data were processed

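From 80 tubules for each genotype, poly-A RNA was selected and made into Illumina TruSeq libraries, per the labels' protocols. The authors deposited whole-number read counts for each gene and library, which were not normalized. TopHat, Cufflinks, HTSeq and DESeq are named, without versions, in the submitters' processing notes. Not given in the sources used here are build, annotation release and strand setting, so no coordinates are printed and overlapping genes are reported as uncertain. Sample titles mark the yki3SA and control libraries, but not the ITP-i libraries, as a re-analysis.

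Counts were tested in R 4.3.3 with edgeR 4.0.16 (filterByExpr, TMM factors, quasi-likelihood F-test, robust = FALSE). All 9 libraries, 3 of them from yki3SA flies with ITP knockdown (ITP-i), entered 1 fit by group, with 6 residual degrees of freedom. Genes were called at a Benjamini-Hochberg adjusted p under 0.05. The SE of a log2 fold change is its size divided by the square root of F, and the prior count was 0.125. Alternatives were DESeq2 1.42.0, scaling with DESeq2 size factors, total counts or upper quartiles, a filter of 5 CPM in 3 libraries or none, only the 6 libraries, a replicate block, and each of 9 libraries left out.

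The 46 functional lists hold 1853 genes, and 10 marker lists were made beside them. Of 1497 names written for the functional and marker lists together, 26 matched no gene. Members and lists were chosen with earlier results of these data known, and symbols were corrected and wrong members removed after the files were read. For each list, the called members of smallest p that reached 5 CPM were named, up to 4 in each direction. Beside these, the 10 largest rises and falls of unnamed genes and the 12 of named genes outside the lists were taken, with at least 10 CPM and no overlap. The text describes some of these genes, each with a call that held in every alternative unless stated. The 59 identifiers without a symbol were kept in the fit. Overlaps of exons came from the Ensembl annotation, whose build may differ, and an overlapping gene is named where it had at least 0.1 times the gene's counts. Figures and tables used Python 3.11.15, pandas 2.3.3, numpy 2.4.6 and matplotlib 3.10.9.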

Additional observations from a re-analysis of the deposited data

How the results depend on the processing

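The number of called genes stayed within 1.5 times of 3091 under every alternative. It was 2883 with DESeq2 size factors, 3390 with DESeq2, 2902 with upper-quartile factors, 4216 with total counts, 2728 without a filter, 2667 with at least 5 CPM in 3 libraries and 2703 with only the 6 libraries. Without 1 library it ranged from 2177 to 3150. The number called at least 2-fold apart was 1293, ranged from 1095 to 1286 without 1 library, and was 847 with at least 5 CPM in 3 libraries, where fewer genes (7111) were tested. No gene called both in an alternative and in the fit reported changed direction. Higher calls made up 53.7% and lay between 45.2% (upper-quartile factors) and 53.8% (replicate block), apart from the 77.9% with total counts. Of 261 genes taken by the naming rule, 259 were called, 193 of them in all 17 alternatives, and none changed sign.

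The replicate block gave 3189 called genes, 2893 of them shared with the fit reported, and 1234 at least 2-fold apart. Same-numbered yki3SA and control libraries deviated from their group means with correlations of 0.06, -0.08 and 0.05, and not every library correlated best with its own number, so the libraries share only a number. Counts of list members depended on single libraries more than the counts over all genes did. Depth limits genes at low counts, where 3 counts correspond to 0.0502 to 0.0904 CPM in the libraries compared, and such floors cover counting error only.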

Other observations

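Called genes at least 2-fold apart sat side by side in 16 stretches of 4 or more adjacent tested genes, 2 of them higher and 14 lower in yki3SA tubules. The stretches were looked for after the values had been seen, the order of genes comes from the Ensembl annotation, and no test was made. The longest lies on chromosome arm 3L and holds 10 genes, all higher in yki3SA tubules: Ccn, CG7460, CG6034, Adgf-B, Adgf-A, Adgf-A2, CG32182, CG32181, CG42816 and NUCB1. Ccn belongs to the CCN family of secreted matrix proteins, CG7460 and CG6034 are annotated by the authors as spermine oxidases, and Adgf-B, Adgf-A and Adgf-A2 are secreted adenosine deaminases.

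CG7460 was at 66.9, 56.3 and 41.2 CPM in yki3SA tubules, against 8.48, 9.79 and 9.61 CPM in control tubules (log2 fold change 2.56, SE 0.19, adjusted p = 1.9e-05). NUCB1, a calcium-binding protein of the secretory pathway, was at 495, 602 and 542 CPM in yki3SA tubules, against 264, 279 and 263 CPM in control tubules (log2 fold change 1.02, SE 0.15, adjusted p = 9.2e-04). Ccn, which overlaps Adgf-B on the other strand, was at 4.96, 3.27 and 4.08 CPM in yki3SA tubules, against 0.149, 0.403 and 0.332 CPM in control tubules (log2 fold change 3.80, SE 0.35, adjusted p = 5.8e-05). CG32181 was at 5.97, 2.84 and 4.69 CPM in yki3SA tubules, against 0.373, 0.0537 and 0.753 CPM in control tubules (log2 fold change 3.53, SE 0.62, adjusted p = 0.0025). In these 4 genes, and in Adgf-A, every yki3SA library was above every control library. CG6034 had 189 counts in the 3 yki3SA libraries together and 1 count in the 3 control libraries together, a ratio of 148 after scaling (exact 95% counting interval 26.3 to 5890). Adgf-B, Adgf-A2, CG32182 and CG42816 lay at low levels, with means of 0.964, 3.35, 2.74 and 0.9996 CPM in yki3SA tubules and 0.0603, 1.01, 0.694 and 0.152 CPM in control tubules. Adgf-A2 overlaps the far more abundant Adgf-A on the same strand, so how reads were split between them, and with it the place of Adgf-A2 in the stretch, is uncertain. The calls of CG6034, Adgf-B, Adgf-A2 and CG42816 ended, or the gene was not tested, in 1, 4, 7 and 2 of the alternatives. The neighbours on either side differed less or the other way. Crtc, next to Ccn, was at 42.8, 44.2 and 45.0 CPM in yki3SA tubules, against 58.9, 54.1 and 60.9 CPM in control tubules and was not called (adjusted p = 0.082), and CG7484 beyond it was higher by 0.54 on the log2 scale (adjusted p = 0.040), a call that ended in 11 of the alternatives. On the other side ais, next to NUCB1, was higher by 0.52 (adjusted p = 0.0497), a call that ended in 14 of them. Farther on, CG32191, an arylsulfatase relative, was lower, at 6.96, 7.16 and 4.07 CPM in yki3SA tubules, against 27.5, 22.8 and 27.6 CPM in control tubules (log2 fold change -2.10, SE 0.21, adjusted p = 9.1e-05).

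Several of the stretches of lower genes held members of 1 gene family. On arm 3R, 7 adjacent genes hold 6 UDP-glycosyltransferases, another 5 hold the carriers CG7333, CG7342, CG17751 and CG17752, and another 5 hold alpha-Est8, alpha-Est7, alpha-Est6 and alpha-Est4aPsi. On arm 2L, 6 adjacent genes from CG33307 to CG7968 are all unnamed, and on arm 3L so are 5 from CG13311 to CG13312. Other stretches hold chorion genes (Cp7Fa to Cp38), lysozymes (LysB to LysE) and trypsins (thetaTry to betaTry), which are markers of ovary and gut, and 6 genes of the mitochondrial genome. How reads were split between near-identical copies in these families is uncertain.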
